A study of Mus musculus with 4 samples.

Results

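The semaphorin signalling family was described in cells sorted from the embryonic mouse cortex after overexpression of Zeb1. Its members were taken from the gene names of the expression table: semaphorins of classes 3 to 7, plexins of types A to D and the neuropilins Nrp1 and Nrp2. The rule found 31 genes among the 48395 of the table, 20 semaphorins, 9 plexins and 2 neuropilins, and each symbol occurred once. Semaphorins are secreted or membrane-bound guidance cues. Plexins are their main signalling receptors, with a cytoplasmic GTPase-activating domain, and neuropilins are coreceptors that bind the secreted class 3 ligands and lend them to plexins. In the developing cortex, the family is known for steering axons and dendrites, for guiding migrating neurons and for shaping blood vessels.

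The study asks how ZEB1, a zinc-finger repressor, acts on neural differentiation and cell migration in the neocortex. In the Zeb1 group, cortices of ICR mice received a plasmid for Zeb1 and the green fluorescent protein ZsGreen by in utero electroporation at E14.5. The control group received ZsGreen alone. The ubiquitous CAG promoter drove both plasmids, cells were sorted by fluorescence at E16.5, 48 hours later, and each group held 2 libraries. The labels name no litter and no number of embryos, so all p-values below measure only the spread between these samples, which may be technical.

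The values are FPKM, fragments scaled to gene length and library size, so the absolute depth is unknown. Short genes put relative depth at 0.994 in Zeb1 replicate 1, 1.04 in Zeb1 replicate 2 and 1.01 in control replicate 2, as ratios to control replicate 1. Zeb1 itself, the check of the labels, had 5622 and 6227 FPKM in the Zeb1 libraries, against 35.2 and 18.6 FPKM in the controls. It rose, with a log2 fold change of 7.80 and a limma adjusted p of 0.0192. With any 1 library left out the fold change stayed between 7.35 and 8.24, but that call ended, with adjusted p of 0.116 to 0.330. It also ended without a filter and with a replicate block. Across protein-coding genes, the Spearman correlation of control replicate 2 with the Zeb1 libraries was 0.9446 and 0.9608. That of control replicate 1 with them was 0.9754 and 0.973. The controls reached 0.9720 with each other, and the Zeb1 libraries 0.9755. The lists of projection neuron and apical progenitor markers used here were detected in full, with 10 of 10 at the level for testing in each. Of 14 microglial markers, 13 reached the level for testing, and their summed level was 911 and 493 FPKM in the Zeb1 libraries, against 517 and 136 FPKM in the controls. None of the 14 was at 0 in every library, and the least abundant, Itgam, stayed under 1 FPKM. The endothelial list summed to 24.9 and 19.7 FPKM in Zeb1 libraries and to 23.9 and 27.0 FPKM in controls, with 5 of its 10 genes tested. Mfsd2a, its most abundant gene, had 10.7 and 9.78 FPKM in Zeb1 libraries and 13.5 and 15.9 FPKM in controls. Of the 5, 2 had both Zeb1 libraries below both controls (19.5% of all genes). Pecam1 alone had both above (18.2%), at 2.67 and 1.92 FPKM against 1.24 and 0.974 FPKM.

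Most of the family was well expressed. Of the 31 genes, 26 reached 1 FPKM in each Zeb1 library and 27 in each control library. Sema6c, a transmembrane class 6 ligand, was the most abundant, with 165 and 185 FPKM in Zeb1 cells and 151 and 157 FPKM in control cells. It made up 26.7% and 29.5% of all semaphorin FPKM in the Zeb1 libraries, and 24.5% and 28.6% in the controls. The receptors Plxnb2 and Plxna3 came next in both groups, followed by Plxna2 and by Sema3c, a secreted ligand that attracts cortical axons. Their group means lay between 74.8 FPKM for Sema3c and 108 FPKM for Plxnb2 in Zeb1 cells, and between 71.6 and 113 FPKM in control cells. The first 5 ranks were the same in both groups, and neighbours such as Plxnb2 and Plxna3 differed by less than the spread of Plxnb2 in the controls. Together with Plxna1, these genes gave 51.9% and 53.7% of the summed family FPKM in Zeb1 libraries and 50.6% and 53.0% in controls. At the other end, 4 genes had a mean under 1 FPKM over the 4 libraries and were not tested.

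**Figure D1:**
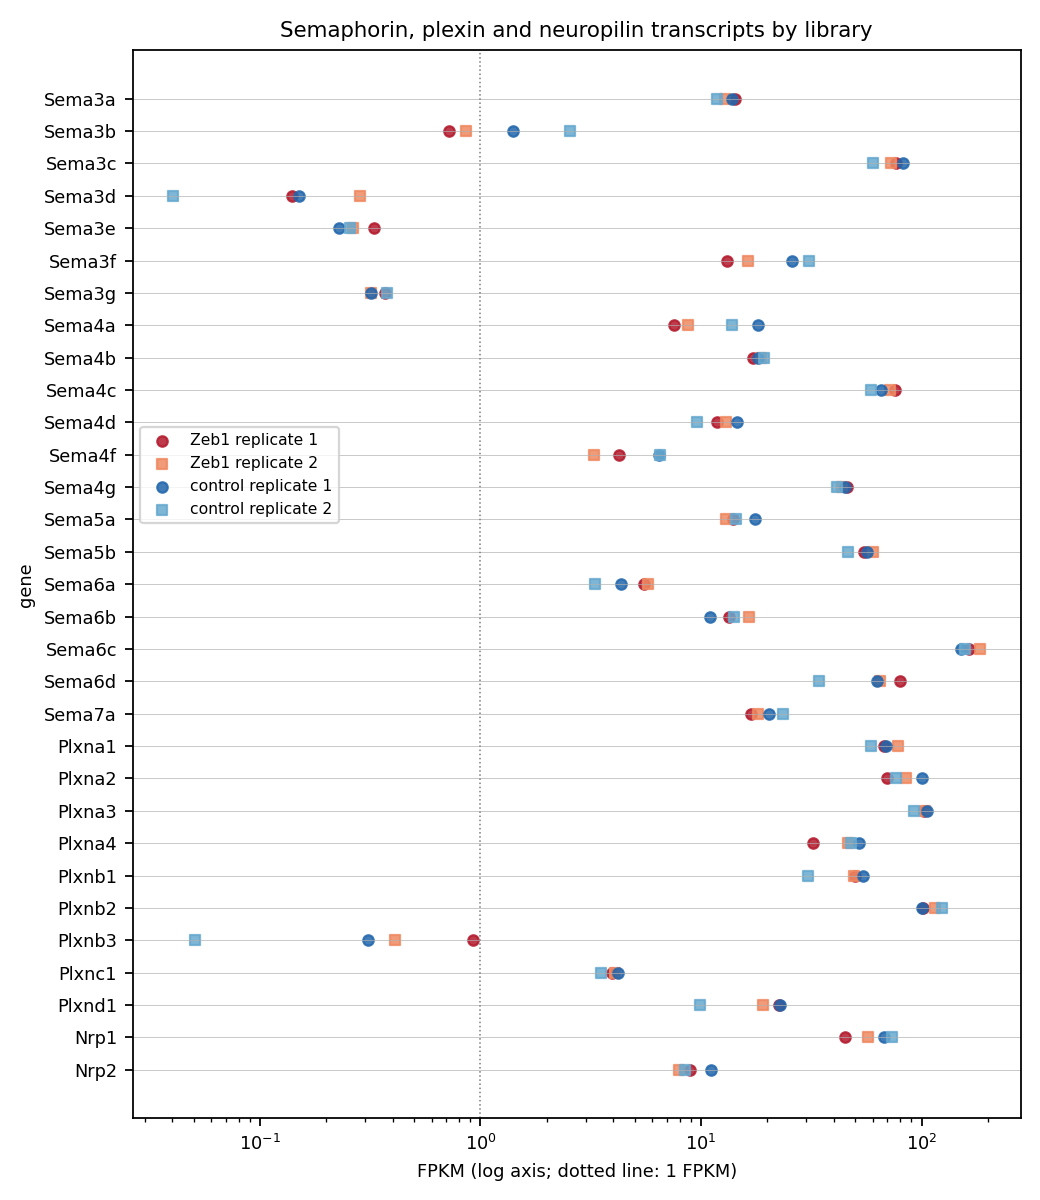
FPKM of all 31 genes in each library on a log axis, with Zeb1 libraries in red and orange and controls in blue. Sema6c lies highest and Sema3d lowest, and the points of Zeb1 and control libraries are mixed for most genes.

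The comparison of Zeb1 with control cells called none of the family. On the log2(FPKM + 1) scale, limma was fitted over 14330 genes, of which 0.195% passed an adjusted p under 0.05, and 0 of the 27 family genes tested were among them. The smallest limma adjusted p of the family was 0.510, for Sema3f. At an unadjusted limma p under 0.05, 3 of 27 genes passed, or 11.1%, against 6.92% of all genes. All 3, Sema3f, Sema4a and Sema4f, were ligands and had lower values in Zeb1 cells, and 3.68% of all genes were lower at that level. In 12 of the 27 genes the groups did not overlap, against 37.6% of all genes. In 4 of these both Zeb1 libraries lay above both controls (18.2% of all genes) and in 8 below (19.5%). Log2 fold changes ran from -0.91 for Sema3f to 0.62 for Sema6d, with a median of 0.06, against 0.00032 over all genes. The 95% interval stayed within a 2-fold change in either direction, from -1 to 1 on the log2 scale, for 19 of the 27 genes, and within 0.5 for 3. These intervals are not adjusted for the number of genes. In such sorted bulk samples, fewer cells of a type and less RNA per cell cannot be told apart. For single values, the smallest p that an exact permutation test of this design allows is 0.333, and no such test is given.

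**Figure D2:**
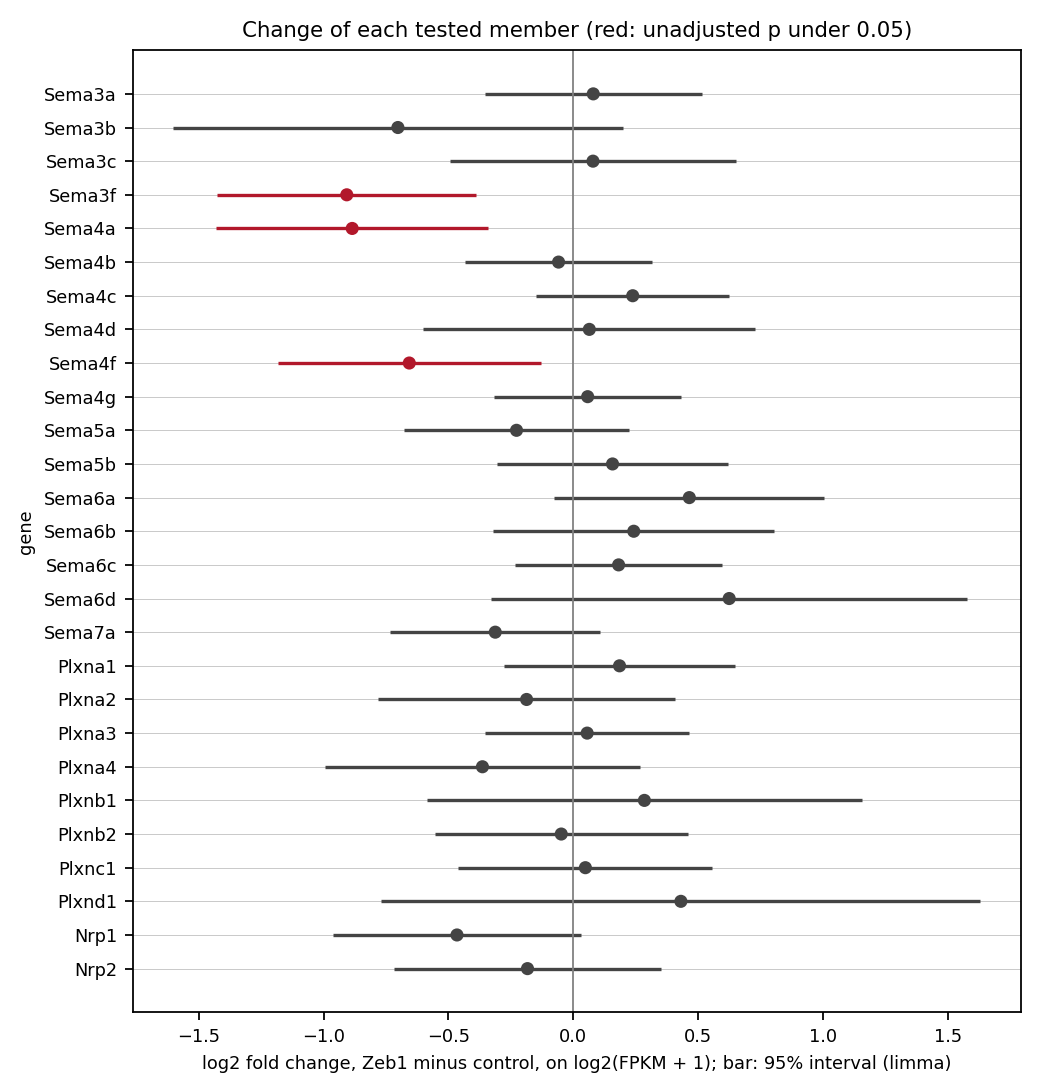
Log2 fold change, Zeb1 minus control, of the 27 genes tested, with 95% intervals from limma as bars. Red marks the 3 genes with an unadjusted p under 0.05, all to the left of 0, and most other intervals cross 0 near the middle.

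Among the secreted class 3 ligands, Sema3f had the smallest p. SEMA3F binds neuropilin-2 and repels axons and migrating neurons. Sema3f (chromosome 9, 107681500 to 107710475, minus strand, GRCm38) had 13.1 and 16.3 FPKM in the Zeb1 libraries, against 25.9 and 30.9 FPKM in the controls. Both Zeb1 libraries thus lay below both controls, with means of 14.7 ± 2.29 FPKM in Zeb1 cells and 28.4 ± 3.58 FPKM in control cells (SD, n = 2 each). The log2 fold change was -0.91 with a standard error of 0.19, a 95% interval of -1.43 to -0.39, an unadjusted limma p of 0.00843 and an adjusted p of 0.510. With 1 library left out, it lay between -1.06 and -0.76.

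Sema3b, a neighbour of Sema3f on the same strand (107597674 to 107609229), encodes a ligand of both neuropilins. It had 0.723 and 0.860 FPKM in Zeb1 cells and 1.40 and 2.53 FPKM in control cells. The groups did not overlap, but the controls differed from each other more than the lower of them did from the Zeb1 libraries. Its log2 fold change was -0.70 with a standard error of 0.32 and a limma adjusted p of 0.764. With a pseudocount of 0.1 it was -1.16, against -0.95 for Sema3f. With 1 library left out it lay between -0.98, without control replicate 1, and -0.42, without control replicate 2. The 2 loci are 72270 bp apart. Looked at after the values of both genes were seen, 5 genes lie between them and 2 were tested. The G protein subunit gene Gnai2 had a log2 fold change of 0.02. The amino acid transporter gene Slc38a3 had one of -0.34, and its groups did not overlap.

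The other class 3 ligands showed overlapping groups or low levels. Sema3a, the classic repellent of cortical axons that signals through neuropilin-1, had 14.3 and 12.8 FPKM in Zeb1 cells and 13.8 and 11.8 FPKM in control cells. Sema3c had 76.5 and 73.1 FPKM in Zeb1 cells and 82.8 and 60.4 FPKM in control cells. Their log2 fold changes were 0.08 each, with 95% intervals of -0.35 to 0.51 for Sema3a and -0.49 to 0.65 for Sema3c. Within a library, Sema3c exceeded Sema3f 5.85-fold and 4.47-fold in Zeb1 cells, and 3.20-fold and 1.95-fold in control cells. Sema3e, whose product binds plexin-D1 without a neuropilin, ranged from 0.263 to 0.329 FPKM in Zeb1 cells and from 0.228 to 0.256 FPKM in control cells. Sema3g had 0.368 and 0.320 FPKM in Zeb1 cells and 0.320 and 0.375 FPKM in control cells. Sema3d had 0.139 and 0.284 FPKM in Zeb1 cells and 0.150 and 0.0404 FPKM in control cells.

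Class 4 semaphorins are membrane-anchored ligands, many of which bind B-type plexins. Sema4a (chromosome 3, 88435959 to 88461182, minus strand), known for roles in immune cells and in the retina, had 7.56 and 8.75 FPKM in Zeb1 cells, against 18.1 and 13.9 FPKM in control cells. Both Zeb1 libraries lay below both controls. The means were 8.15 ± 0.840 FPKM in Zeb1 cells and 16.0 ± 3.02 FPKM in control cells (SD, n = 2 each). The log2 fold change was -0.89 with a standard error of 0.20, an unadjusted limma p of 0.0109 and an adjusted p of 0.561. It lay between -1.07 and -0.70 with 1 library left out. Sema4f (chromosome 6, 82911885 to 82939769, minus strand), whose product is found at glutamatergic synapses, had 4.26 and 3.27 FPKM in Zeb1 cells, against 6.44 and 6.51 FPKM in control cells. Its controls were close together and the Zeb1 libraries both lay below them. The log2 fold change was -0.66 with a standard error of 0.19, an unadjusted limma p of 0.0259 and an adjusted p of 0.643. With a pseudocount of 0.1 it was -0.78, and with 1 library left out it lay between -0.81 and -0.51.

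The rest of the class was close to the controls. Sema4c, a ligand of plexin-B2, had 75.4 and 72.2 FPKM in Zeb1 cells, against 65.8 and 59.2 FPKM in control cells, without overlap. Its log2 fold change was 0.24, with a 95% interval of -0.15 to 0.62 and a limma adjusted p of 0.764. The processed transcript D430040D24Rik overlaps it on the opposite strand and had 2.87 and 2.71 FPKM in Zeb1 cells and 1.63 and 1.91 FPKM in control cells. The sources used here do not state whether counting used the strand. Sema4b and Sema4g, at 17.2 to 18.6 and 43.5 to 46.1 FPKM in Zeb1 cells and 18.2 to 19.2 and 41.2 to 44.9 FPKM in control cells, had log2 fold changes of -0.06 and 0.06. Sema4d, the ligand of plexin-B1, had 11.9 and 13.0 FPKM in Zeb1 cells and 14.53 and 9.61 FPKM in control cells, so that the controls enclosed both Zeb1 libraries.

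ZEB1 is known to bind E-boxes with the letters CACCTG. This motif was searched on both strands in RefSeq promoter windows of GRCm38.p6, which reach from 250 bases before to 50 after an annotated start. The search covered windows of 26 of the 31 genes, 37 windows in all, and left out Plxna1, Plxna4, Sema3b, Sema3f and Sema6a. That these genes were left out does not show that they lack an annotated window or the motif. The motif occurred in 5 of the 37 windows, or 13.5%, against 20.2% of all 32851 windows. Some genes bring several windows. Counted by gene, the motif was present in 5 of the 26, against 22.6% of all 27025 genes. It was found in the windows of Sema4f and Sema3d and in 1 of 2 windows each of Sema4c, Plxnb2 and Sema6d. Sema4f held it at 2 places, beginning 110 and 89 bases before the start, and 2.88% of all windows hold 2 or more. No window of Sema4a or Nrp1 held it. The windows shown are those of 2 ligands with lower values, of Nrp1 and of a ligand with higher values in Zeb1 cells. They are Sema4f (chr6:82939720-82940019, minus strand), Sema4a (chr3:88461133-88461432, minus strand), Nrp1 (chr8:128358823-128359122, plus strand) and Sema4c (chr1:36558332-36558631, minus strand). They are written 5′ to 3′ along the gene, with capitals for the motif or its reverse complement. A match describes letters and shows no binding.
Sema4f: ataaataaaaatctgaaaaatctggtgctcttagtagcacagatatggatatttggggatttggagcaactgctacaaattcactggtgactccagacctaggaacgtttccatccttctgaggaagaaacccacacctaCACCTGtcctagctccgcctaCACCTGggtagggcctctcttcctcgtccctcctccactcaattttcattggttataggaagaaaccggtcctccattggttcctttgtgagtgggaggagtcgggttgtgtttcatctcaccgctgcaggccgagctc
Sema4a: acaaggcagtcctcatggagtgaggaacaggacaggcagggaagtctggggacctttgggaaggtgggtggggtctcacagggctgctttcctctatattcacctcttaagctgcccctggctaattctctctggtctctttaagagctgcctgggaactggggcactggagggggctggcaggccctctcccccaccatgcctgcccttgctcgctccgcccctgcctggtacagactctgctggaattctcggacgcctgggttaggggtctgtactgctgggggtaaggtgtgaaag
Nrp1: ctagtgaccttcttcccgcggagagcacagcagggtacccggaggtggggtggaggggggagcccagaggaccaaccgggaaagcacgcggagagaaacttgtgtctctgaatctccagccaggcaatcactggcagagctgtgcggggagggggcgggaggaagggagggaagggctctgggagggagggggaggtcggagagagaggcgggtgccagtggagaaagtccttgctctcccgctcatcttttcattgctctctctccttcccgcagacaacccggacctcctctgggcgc
Sema4c: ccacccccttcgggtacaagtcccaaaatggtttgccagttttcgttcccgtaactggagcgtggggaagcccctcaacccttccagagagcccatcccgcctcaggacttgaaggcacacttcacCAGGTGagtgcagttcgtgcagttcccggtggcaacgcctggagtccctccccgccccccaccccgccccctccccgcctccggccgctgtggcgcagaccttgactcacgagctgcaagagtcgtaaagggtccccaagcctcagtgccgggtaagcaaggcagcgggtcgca

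The class 5 ligands, transmembrane proteins with thrombospondin repeats, differed little. Sema5b had 54.6 and 60.2 FPKM in Zeb1 cells and 56.6 and 46.5 FPKM in control cells, a log2 fold change of 0.16. Sema5a had 13.9 and 13.0 FPKM in Zeb1 cells, against 17.6 and 14.4 FPKM in control cells. Both Zeb1 libraries of Sema5a lay below both controls, by a margin smaller than the gap between the controls, and the log2 fold change was -0.23. With 1 library left out it lay between -0.36 and -0.09, without control replicate 2 and control replicate 1 in that order.

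All 4 class 6 ligands, transmembrane semaphorins that bind A-type plexins directly, had positive log2 fold changes, against 7174 of the 14330 genes tested. None passed at an unadjusted p under 0.05 in limma, where 3.23% of all genes were higher, and in 3 of the 4 both Zeb1 libraries lay above both controls (18.2% of all genes). Sema6d, a ligand of plexin-A1, had 79.9 and 64.9 FPKM in Zeb1 cells, against 62.5 and 34.4 FPKM in control cells. The Zeb1 replicate 2 value is close to that of control replicate 1, and control replicate 2 is far below the rest. The log2 fold change was 0.62 with a standard error of 0.34 and a limma adjusted p of 0.764, and without control replicate 2 it was 0.20. Sema6a (chromosome 18, 47235598 to 47368870), a ligand of plexin-A2 and plexin-A4, had 5.52 and 5.75 FPKM in Zeb1 cells, against 4.35 and 3.32 FPKM in control cells. Its log2 fold change was 0.46 with a standard error of 0.19 and a limma adjusted p of 0.749, and it was 0.31 without control replicate 2. Sema6c had a log2 fold change of 0.18 (95% interval of -0.23 to 0.60). Sema6b, at 13.4 and 16.6 FPKM in Zeb1 cells and 11.0 and 14.1 FPKM in control cells, had 0.24, with overlapping groups.

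Sema7a, the one semaphorin held to the membrane by a lipid anchor and a ligand of plexin-C1 and beta-1 integrins, had 16.8 and 18.1 FPKM in Zeb1 cells, against 20.3 and 23.7 FPKM in control cells. The groups did not overlap. The log2 fold change was -0.31 with a standard error of 0.15, a 95% interval of -0.73 to 0.11 and a limma adjusted p of 0.764. Without control replicate 2 it was -0.21.

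**Figure D3:**
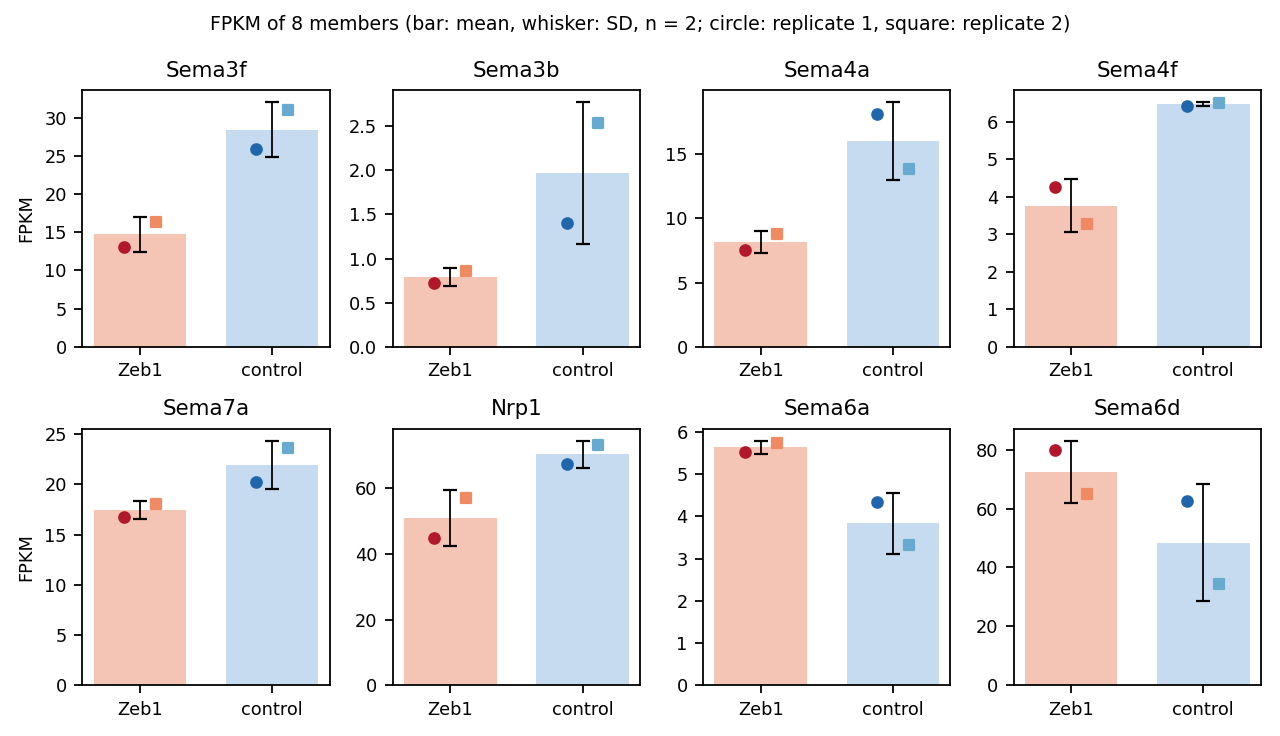
FPKM of 8 ligand and coreceptor genes in Zeb1 and control cells, with bars for the mean, whiskers for the SD (n = 2) and a point per library. Sema3f, Sema3b, Sema4a, Sema4f, Sema7a and Nrp1 lie lower in both Zeb1 libraries, and Sema6a and Sema6d lie higher.

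Of the neuropilins, Nrp1, the coreceptor for SEMA3A and for VEGF, was the more abundant. Nrp1 (chromosome 8, 128359073 to 128505462, plus strand) had 45.0 and 56.9 FPKM in Zeb1 cells, against 67.4 and 73.3 FPKM in control cells. Both Zeb1 libraries lay below both controls, with means of 51.0 ± 8.47 FPKM in Zeb1 cells and 70.3 ± 4.14 FPKM in control cells (SD, n = 2 each). The log2 fold change was -0.47 with a standard error of 0.18, a 95% interval of -0.96 to 0.03 and a limma adjusted p of 0.733. It was -0.30 without Zeb1 replicate 1 and -0.63 without Zeb1 replicate 2. Nrp2, the coreceptor for SEMA3F, had 8.89 and 7.92 FPKM in Zeb1 cells and 11.1 and 8.44 FPKM in control cells, with overlapping groups and a log2 fold change of -0.18. The ratio of Nrp1 to Nrp2 was 5.06 and 7.19 in Zeb1 libraries and 6.10 and 8.68 in controls, so these ranges overlapped. Summed over both genes, neuropilin FPKM was 59.4 ± 7.78 in Zeb1 cells and 80.1 ± 2.29 in control cells (SD, n = 2 each).

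Sema3f, Sema3b, Sema7a and Nrp1 had the same order of libraries, with Zeb1 replicate 1 lowest, then Zeb1 replicate 2, control replicate 1 and control replicate 2. This order was looked at after the values were seen, and its share of all genes was not counted. The summed level of 10 projection neuron markers had that order too, at 1232 and 1269 FPKM in Zeb1 libraries and 1314 and 1391 FPKM in controls. Of those 10 markers, 4 had both Zeb1 libraries below both controls (19.5% of all genes) and 1 had both above them (18.2%), and none was at 0. Summed apical progenitor markers were 1330 and 972 FPKM in Zeb1 libraries and 879 and 860 FPKM in controls, with 3 of 10 above both controls and 1 below both, to be read against the same shares of all genes. Vim, an intermediate filament gene, had 758 and 561 FPKM of this in Zeb1 libraries and 392 and 384 FPKM in controls. The other 9 summed to 572 and 411 FPKM in Zeb1 libraries and 487 and 477 FPKM in controls, so that the groups overlapped. The part of these markers in the values of the ligands and of Nrp1 was not tested.

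None of the 8 plexins tested passed at an unadjusted p under 0.05 in limma, and the groups did not overlap in 1 of 8, against 37.6% of all genes. They did not overlap in 10 of 17 ligands, and whether ligands and plexins differ in this was not tested. The A-type plexins, which pair with neuropilins or bind class 6 ligands, gave 60.3% and 62.4% of plexin FPKM in Zeb1 libraries and 64.2% and 62.1% in controls. Plxna4 had 32.1 and 46.5 FPKM in Zeb1 cells, against 52.0 and 48.1 FPKM in control cells. Zeb1 replicate 2 was close to the controls, and the log2 fold change of -0.36 came down to -0.10 without Zeb1 replicate 1. The antisense gene Plxna4os3, inside the Plxna4 locus, had 3.38 FPKM in Zeb1 replicate 1 and under 1 FPKM in the other libraries. Plxna2 had 69.6 and 85.4 FPKM in Zeb1 cells and 101 and 76.8 FPKM in control cells. Plxna1 had 67.5 and 78.1 FPKM in Zeb1 cells and 68.8 and 59.0 FPKM in control cells. Plxna3 had 102 and 103 FPKM in Zeb1 cells and 106 and 92.4 FPKM in control cells. Groups overlapped in all 3, and the log2 fold changes were -0.19 for Plxna2, 0.18 for Plxna1 and 0.06 for Plxna3.

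Plxnb1 and Plxnd1, the receptors of SEMA4D and SEMA3E, were marked by a gap between the controls. Plxnb1 had 50.0 and 49.7 FPKM in Zeb1 cells, against 54.2 and 30.5 FPKM in control cells. Plxnd1, best known from blood vessels, had 22.5 and 19.1 FPKM in Zeb1 cells, against 22.9 and 9.89 FPKM in control cells. In both genes the Zeb1 libraries lay under control replicate 1 and well above control replicate 2. Their log2 fold changes were 0.28 for Plxnb1 and 0.43 for Plxnd1 over all libraries, and -0.12 and -0.14 without control replicate 2. Plxnb2, a receptor known from neural progenitors, had 101 and 116 FPKM in Zeb1 cells and 101 and 124 FPKM in control cells, a log2 fold change of -0.05 with a 95% interval of -0.55 to 0.46. Plxnc1, the receptor of SEMA7A, had 3.94 and 4.08 FPKM in Zeb1 cells and 4.18 and 3.53 FPKM in control cells. Plxnb3 had 0.922 and 0.411 FPKM in Zeb1 cells and 0.310 and 0.0510 FPKM in control cells, under the level for testing.

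Control replicate 2 had low values for many of these genes. It was the lowest of the 4 libraries for 13 of the 27 genes, or 48.1%, against 29.7% of all genes tested. The controls differed from each other by more than the Zeb1 libraries did in 21 of 27 genes, or 77.8%, against 50.1% of all genes. Control replicate 1 was the higher control in 18 of the 27 genes, or 66.7%, against 52.5% of all genes. It exceeded control replicate 2 by 2.32-fold for Plxnd1, 1.82-fold for Sema6d, 1.78-fold for Plxnb1 and 1.51-fold for Sema4d. Other genes went the other way, among them Sema3b, with 1.40 FPKM in control replicate 1 and 2.53 FPKM in control replicate 2. Zeb1 replicate 1 was the highest library for 4 of the 27 genes, or 14.8%, against 34.2% of all genes tested. The 13 tested microglial markers were each lowest in control replicate 2 and highest in Zeb1 replicate 1. Of these, 4 had both Zeb1 values above both control values (18.2% of all genes), and their part in these genes was not tested. The median log2 fold change of the 27 genes was -0.12 without control replicate 2, against -0.011 over all genes. It was 0.12 without control replicate 1, against 0.0062 over all genes. Leaving out Zeb1 replicate 1 gave 0.046, against -0.050 over all genes. Leaving out Zeb1 replicate 2 gave 0.028, against 0.052. In each of these fits, 1 group keeps a single library, whose spread is taken to equal that of the other group. In each of these cases 0 genes of the family passed an adjusted p under 0.05.

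**Figure D4:**
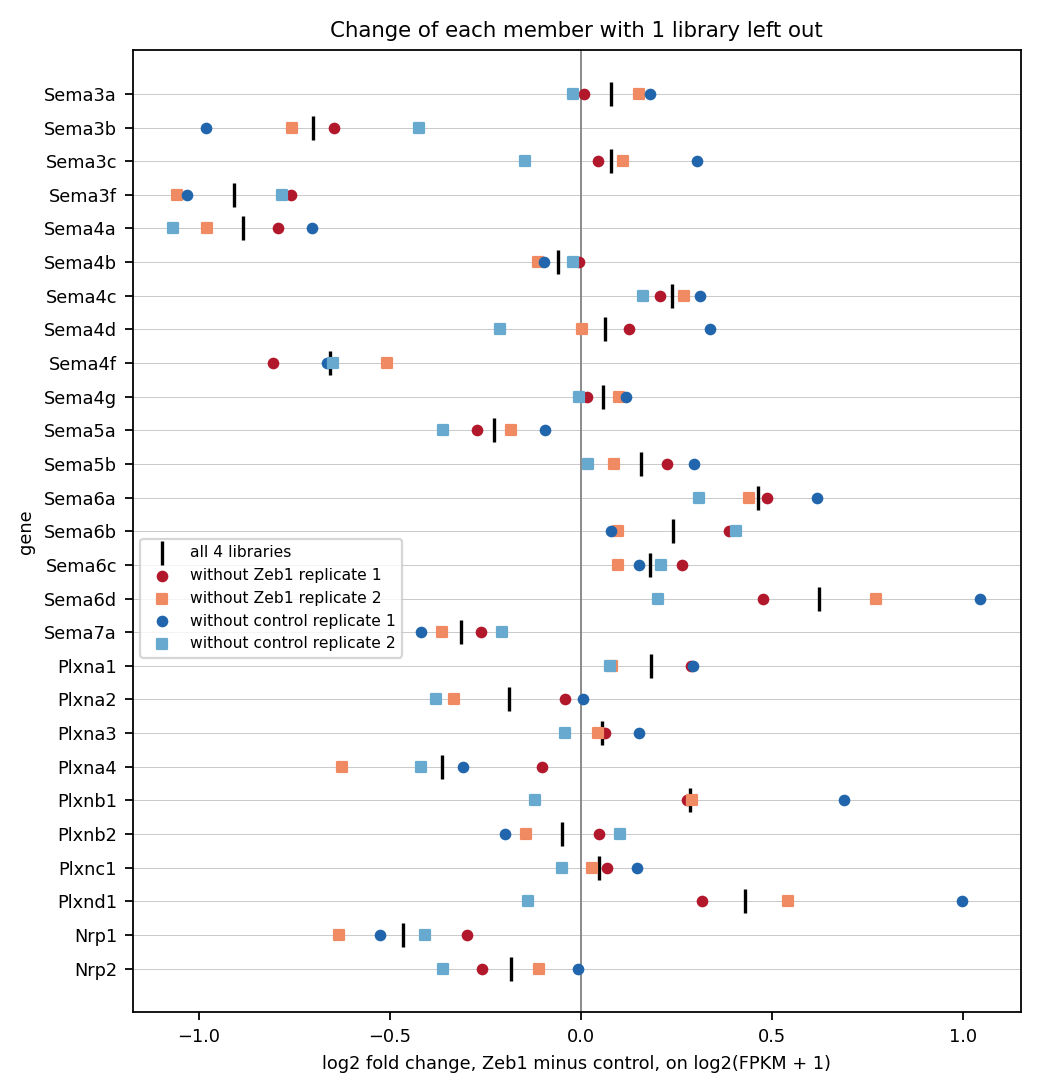
Log2 fold change, Zeb1 minus control, of the 27 genes with all libraries (black ticks) and with 1 library left out (points coloured by the library removed). Sema3f, Sema4a, Sema4f and Nrp1 stay left of 0 throughout, while Plxnb1, Plxnd1 and Sema4d move across 0 without control replicate 2.

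Summed over groups of genes, class 6 ligands had 263 and 272 FPKM in Zeb1 libraries and 229 and 209 FPKM in controls, 1.23 times the control mean. Sema6c and Sema6d made up most of this sum. Class 3 ligands had 105 and 104 FPKM in Zeb1 libraries and 125 and 106 FPKM in controls. A-type plexins had 271 and 313 FPKM in Zeb1 libraries and 327 and 276 FPKM in controls, with overlap. The whole family summed to 1121 and 1194 FPKM in Zeb1 libraries and to 1204 and 1076 FPKM in controls, so its total did not separate the groups.

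**Figure D5:**
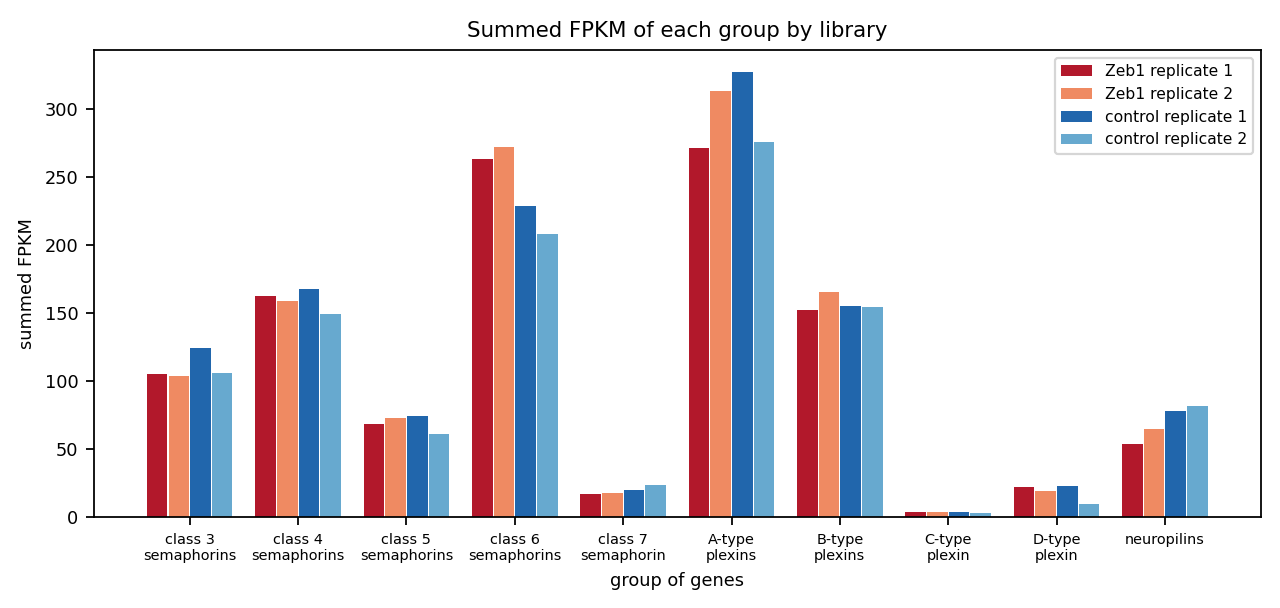
Summed FPKM of each class of semaphorins, plexins and neuropilins, with 1 bar per library and Zeb1 libraries first. Class 6 semaphorins are higher in both Zeb1 libraries. Lower in both are neuropilins, mostly Nrp1, and class 7, which is Sema7a alone. Class 3 semaphorins are lower too, but by a small margin from control replicate 2. The bars of A-type plexins overlap.

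Genes that act with the family were taken from a list of 54 coreceptors, neuropilin ligands and cytoplasmic effectors, 47 of which were tested. Of these, 0 passed an adjusted p under 0.05, and 1 higher and 1 lower gene passed at an unadjusted limma p under 0.05, or 4.26% together. Of all genes, 3.23% were higher and 3.68% lower at that level. The median log2 fold change was 0.03. Limk2, a kinase that inactivates cofilin downstream of plexins, had 52.7 and 57.7 FPKM in Zeb1 cells, against 84.7 and 83.0 FPKM in control cells. Its log2 fold change was -0.60 with a standard error of 0.13, an unadjusted limma p of 0.0116 and an adjusted p of 0.574. Mical1, an enzyme that binds plexins and oxidises actin, had 23.9 and 26.2 FPKM in Zeb1 cells, against 16.0 and 19.4 FPKM in control cells. Its log2 fold change was 0.48 with a standard error of 0.16, an unadjusted limma p of 0.0420 and an adjusted p of 0.705.

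The next genes on the lower side were the kinase gene Pak1 and the small GTPase genes Rras2 and Mras, with log2 fold changes of -0.45, -0.34 and -0.38. That of Mras was -0.25 without control replicate 1. On the higher side they were Fes, Rnd3 and Rac1. Fes, a tyrosine kinase of myeloid cells that acts on plexin-A, had 14.1 and 5.48 FPKM in Zeb1 cells and 4.75 and 2.37 FPKM in control cells. It was highest in Zeb1 replicate 1 and lowest in control replicate 2, as was the summed level of the microglial markers, whose part in it was not tested. Its log2 fold change was 1.17, with 0.56 without Zeb1 replicate 1 and 1.78 without Zeb1 replicate 2. The GTPase genes Rnd3 and Rac1 had log2 fold changes of 0.42 and 0.25, which were 0.16 and 0.12 without Zeb1 replicate 1 and 0.67 and 0.37 without Zeb1 replicate 2. The groups did not overlap in 18 of the 47 partners, or 38.3%, against 37.6% of all genes. The VEGF receptor genes Kdr, Flt1 and Flt4, through which neuropilins act in vessels, and the receptor kinase gene Met stayed under 1 FPKM in every library.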

How the data were processed

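RNA was measured in 2 Zeb1 and 2 control libraries of sorted cortical cells. The authors deposited FPKM per gene and library. STAR, Cufflinks, DESeq2 and GRCm38 are named, per the submitters' processing notes, without versions or roles. FPKM are scaled to the length of a gene and the size of a library, so read counts and absolute depth are unknown, and no count-based test, interval or floor was used. Relative depth came from genes under 200 bp, as the most common ratio of single-read values among ratios near 1, held by 73, 70 and 65 of 426, 451 and 412 genes in Zeb1 replicates 1 and 2 and control replicate 2. Of 48395 identifiers, 47930 matched GENCODE, and 27 names that a spreadsheet had turned into dates were restored. Table starts count from 0, so 1 was added.

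Zeb1 and control were compared with limma 3.58.1 in R 4.3.3 on log2(FPKM + 1), two-sided, with an intensity trend, over genes that averaged 1 FPKM or more, and Benjamini-Hochberg adjustment over all of them at 0.05. Fold changes on this scale understate those of low genes. The steps were tested on simulated data. The changes planted there were larger than any seen in the family, so they do not show whether changes of the family's size would be called. The members, lists and tests were chosen with earlier results of these data known. All members are accounted for. The named partners are up to 4 per direction by p. The choices varied were the pseudocount (0.1 and 0.5), the filter on low values (none, or an average of 5 FPKM), the scaling (equal totals, median-of-ratios, quantile) and the limma settings (no trend, robust, a replicate block). Protein-coding genes alone and fits without each library were also tried. Figures were drawn with matplotlib 3.10.9.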

Additional observations from a re-analysis of the deposited data

How the results depend on the processing

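Under all alternatives, 0 family genes and 0 partner genes passed an adjusted p under 0.05. The smallest adjusted p of a family gene was 0.257, with protein-coding genes alone. Over all genes, 28 were called, against 1 without a filter, 11 with a replicate block and 3 with protein-coding genes alone, and 0 with any 1 library left out. The number of family genes at an unadjusted limma p under 0.05 was 3, and 5 with protein-coding genes alone. Of the partners it was 2, and 1 without the trend, 4 with a replicate block and 4 with protein-coding genes alone. The share of all genes at that level was 6.92% in the main fit and was not counted under the alternatives. Sema3f and Sema4a passed at that level under every alternative that kept all 4 libraries. Sema4f did too, except at a mean of at least 5 FPKM (unadjusted limma p of 0.1002, adjusted p of 0.770). The Zeb1 call itself ended without a filter, with a replicate block and with any 1 library left out, with adjusted p of 0.228, 0.0735 and 0.116 to 0.330, while its log2 fold change stayed at 7.80, 7.80 and 7.35 to 8.24.

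In 17 of 27 family genes the direction held under every alternative and with any library left out. The other 10 had small or spread values. Quantile scaling turned Plxnb2 (0.0040) and Plxnc1 (-0.0420). With 1 library left out, the log2 fold change ranged from -0.38 to 0.0062 for Plxna2, -0.0416 to 0.15 for Plxna3, -0.12 to 0.69 for Plxnb1, -0.20 to 0.10 for Plxnb2, -0.0496 to 0.15 for Plxnc1, -0.14 to 0.999 for Plxnd1, -0.0204 to 0.18 for Sema3a, -0.15 to 0.30 for Sema3c, -0.21 to 0.34 for Sema4d and -0.0035 to 0.12 for Sema4g. The cause was not tested. The replicate numbers are not said to mark a shared litter or day. Same-numbered libraries deviated together only weakly (r = 0.0833 across genes, which are not independent replicates), so the replicate block is given only here. It left 3 family genes at an unadjusted p under 0.05. The unknown depth limits what can be said of genes under 1 FPKM.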
